A study of Mus musculus with 4 samples.

Results

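The *Nr4a* family of orphan nuclear receptors comprises *Nr4a1* (also known as Nur77), *Nr4a2* (Nurr1) and *Nr4a3* (NOR1). These 3 of the 32285 genes in the count matrices were chosen by name, and they were followed through every cell type and neuronal cluster of the posterior hindbrain. Nuclei came from 4 single-nucleus RNA sequencing libraries (10x Genomics 3′ chemistry) of a hindbrain piece that contained the area postrema and the nucleus tractus solitarii. Of 44303 barcodes, the deposited annotation marks 39461 as kept nuclei. Counted from it, these fall into 14 cell types and include 134 clusters of neurons, a count that differs slightly from the one in the study's text. Control mice gave 2 of the libraries and AgRP-Gq;POMC-Gi mice the other 2. The latter carry AgRP-IRES-Cre+/-, hM3DGqfl/-, POMC-Dre+/- and hM4DGifl/-. In these mice, Cre under *Agrp* control switches on the activating designer receptor in AgRP neurons, which lie in the hypothalamus and thus outside the tissue sequenced. Dre under *Pomc* control switches on the inhibitory receptor in *Pomc*-expressing cells, which include a small population of the nucleus tractus solitarii. The deposited labels call the controls wild type, whereas the Methods describe controls that carry the same receptor alleles, hM3DGqfl/- and hM4DGifl/-, without a recombinase (AgRP-IRES-Cre-/- and POMC-Dre-/-). Mice were 12 to 20 weeks old, on a C57BL/6 background and of both sexes. All received 3 mg per kg of clozapine-N-oxide (CNO), the ligand of both receptors, and were killed 1 h later without access to food.

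Nr4a proteins bind DNA as constitutively active transcription factors, because bulky side chains fill the pocket in which other nuclear receptors hold a ligand. Their output is therefore set largely by how much of them is made. All members are rapid-response genes, induced within an hour by calcium and cyclic AMP through CREB, its CRTC coactivators and MEF2. *Nr4a1* and *Nr4a2*, but not *Nr4a3*, pair with retinoid X receptors. *Nr4a2* is in addition a lasting identity factor of midbrain dopamine neurons, where it maintains *Th*, *Slc6a3* and *Slc18a2*. In the brain the family is known as a readout of recent neuronal activity and in vessels and immune cells as a response to growth factors and inflammatory signals.

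In GRCm38 (GENCODE M21 models), *Nr4a1* (ENSMUSG00000023034) lies on chromosome 15 from 101254269 to 101274795 on the plus strand. *Nr4a2* (ENSMUSG00000026826) lies on chromosome 2 from 57106830 to 57124003 on the minus strand, and *Nr4a3* (ENSMUSG00000028341) on chromosome 4 from 48045153 to 48086447 on the plus strand. All are protein coding, and no other annotated gene overlaps them. The cyclic AMP response element, the site bound by CREB, has the core TGACG, which reads CGTCA on the opposite strand. It was searched on both strands of the 300 bases around the RefSeq start of each gene, because all members share induction through CREB. Each member held 4 such cores there. The stretches that contain them are printed 5′ to 3′ in the direction of transcription, with 10 bases at either side and the cores in capitals:
Nr4a1, chr15:101266603-101266820, plus strand: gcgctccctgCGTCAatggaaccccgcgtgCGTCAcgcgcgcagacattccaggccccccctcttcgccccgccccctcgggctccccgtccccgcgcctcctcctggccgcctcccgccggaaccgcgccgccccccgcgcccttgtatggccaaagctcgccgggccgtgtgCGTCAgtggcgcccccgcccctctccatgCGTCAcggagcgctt
Nr4a2, chr2:57124100-57124213, minus strand: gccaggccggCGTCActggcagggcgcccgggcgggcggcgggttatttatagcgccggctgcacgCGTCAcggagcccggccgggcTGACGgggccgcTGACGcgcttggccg
Nr4a3, chr4:48045064-48045172, plus strand: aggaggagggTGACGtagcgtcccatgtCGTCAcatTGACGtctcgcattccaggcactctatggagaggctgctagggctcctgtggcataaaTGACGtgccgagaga
Counted from the start site, the first bases of the cores are at -233, -213, -69 and -40 for *Nr4a1*, at -200, -144, -123 and -111 for *Nr4a2* and at -231, -213, -205 and -147 for *Nr4a3*. The RefSeq starts are at 101266846 for *Nr4a1* and 48045305 for *Nr4a3*, both inside the GENCODE spans given above, so that 20 of the bases printed for *Nr4a3* lie in an annotated exon. For *Nr4a2* the RefSeq start, 57124003, is also that of the GENCODE gene. Among 32851 RefSeq promoter windows of the same length (GRCm38.p6), 20.8% held at least 1 core and 0.231% held at least 4. The full palindrome TGACGTCA was in 1.79% of the windows and in none of the members'. The NBRE (AAAGGTCA), the site to which Nr4a monomers bind, was in 1.51% of windows and also in none of the members'. These matches describe letters in a window and do not show that a factor binds there.

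Levels are UMIs of a gene summed over the nuclei of a library and cell type, per 1000000 UMIs of the same nuclei (CPM). The libraries held 9723 to 10051 kept nuclei and 48904976 to 53089402 UMIs. Of 44096 distinct barcode sequences, 206 occurred in more than one library. The library was the replicate (n = 2 per group). The groups are given as 2 mice each with samples pooled by condition, and which mouse entered which library is not stated. The p-values thus measure the spread between libraries, which may be technical in part and need not equal that between mice. The libraries differed in what they contained: the controls had 2 and 436 choroid plexus nuclei, the AgRP-Gq;POMC-Gi group had 6 and 329, and *Xist* was nearly absent from AgRP-Gq;POMC-Gi replicate 2. Each of 13 marker lists had most of its genes highest in the cell type it was written for. For tanycyte-like cells these were *Gfap* and *Slc1a3*, which astrocytes also express, while *Vim* was highest in endothelial cells.

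The members occupied different cell types. *Nr4a1* had a UMI in 12.0% of 12539 neurons (exact 95% interval 11.5 to 12.6, which covers counting error only, as do all intervals here), *Nr4a2* in 1.76% and *Nr4a3* in 1.84%. In oligodendrocytes, the type set beside neurons here, the shares were 1.12%, 0.137% and 0.137% of 16816 nuclei. *Nr4a1* was uneven among oligodendrocyte clusters, with no UMI in 1321 nuclei of cluster 6 and 35 UMIs in 1298 nuclei of cluster 7. The part of background RNA in these values was not tested. The median depth was 8704 UMIs in neurons and 2460 in oligodendrocytes. After every nucleus was thinned to 800 UMIs, the share for *Nr4a1* was 1.31% in neurons and 0.416% in oligodendrocytes. For *Nr4a2* these shares were 0.223% and 0.0297%, and for *Nr4a3* 0.207% and 0.0357%, so neurons stayed the higher for every member. The level in oligodendrocytes was 27.1% of that in neurons for *Nr4a1*, 16.8% for *Nr4a2* and 17.5% for *Nr4a3*. Of 5 neuronal markers, *Snhg11*, *Syt1* and *Rbfox3* were at 1.52%, 1.97% and 3.28%, and these and *Snap25* were below every member. *Stmn2*, at 29.6%, was above them.

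*Nr4a1* was the most widespread member. The 4 libraries, given throughout as control replicates 1 and 2 and then AgRP-Gq;POMC-Gi replicates 1 and 2, had 15.7, 12.5, 13.3 and 19.7 CPM in neurons. Oligodendrocyte precursors (OPC) stood at 26.9, 31.3, 24.8 and 17.4 CPM and endothelial cells at 13.6, 34.9, 23.3 and 26.2 CPM. The libraries of both types overlapped those of neurons. Oligodendrocytes (4.64, 4.77, 3.05 and 4.10 CPM), astrocytes (2.16, 1.75, 5.08 and 2.79 CPM) and Tmem119 immune cells, the microglia (5 UMIs in 969 nuclei), were lower than neurons in each library. The highest mean, 158 CPM, was in Ms4a4b immune cells, a lymphoid type, but it rests on 13 UMIs in 61 nuclei, 9 of them in AgRP-Gq;POMC-Gi replicate 1. Ependymal and tanycyte-like cells came next by their means and are described separately, because that same library set their level. Fibroblasts had 0, 12.4, 11.3 and 14.6 CPM, and mural cells 6 UMIs in 806 nuclei.

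By its mean over libraries, *Nr4a2* was highest in endothelial cells, which line the vessels, with 38.2, 32.6, 40.8 and 46.6 CPM. All 4 libraries lay close together there, and 5.70% of 789 nuclei had a UMI (4.19 to 7.56). This first place held with each library left out, after thinning and on the mean log scale per nucleus. Neurons were at 3.28, 2.73, 2.95 and 3.17 CPM. The second mean, 9.71 CPM in tanycyte-like cells, came from 8 UMIs of AgRP-Gq;POMC-Gi replicate 1 alone. Every other non-neuronal type was at or below 28 UMIs in total, and the 88 F13a1 immune cells, border macrophages, had none, which allows a share of up to 3.41% of nuclei with a UMI at a limit of 3 nuclei for a count of 0 (exact upper limit 4.11%). In oligodendrocytes the level was 0.530, 0.754, 0.211 and 0.539 CPM.

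*Nr4a3* had its highest levels along the ventricle. Tanycyte-like cells, which are radial-glia-like cells with astrocyte genes, had 92.2, 162, 763 and 76.7 CPM. Ependymal cells, the ciliated lining, had 74.2, 39.8, 692 and 95.6 CPM. In neurons it stood at 2.83, 2.30, 3.40 and 4.48 CPM, so every library placed both ventricular types far above the neurons. Averaged over the libraries, both types kept the top 2 places whichever library was omitted and on the mean log scale, and so did the pooled shares after thinning to 800 UMIs. By thinned shares in single libraries, however, tanycyte-like cells of control replicate 1 and ependymal cells of control replicate 2 were at 0%, below neurons at 0.202% and 0.110%. Of the ependymal nuclei 23.9% (75 of 314) had a UMI and of the tanycyte-like nuclei 29.2% (59 of 202). Of these positive nuclei 52.0% and 71.2% held at least 2 UMIs, against 28.1% of the positive neurons. Choroid plexus epithelium, which borders the same ventricle, had 1 *Nr4a3* UMI in 773 nuclei. The remaining types had means of 8.25 CPM or less, the highest of them from a single UMI.

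**Figure D1:**
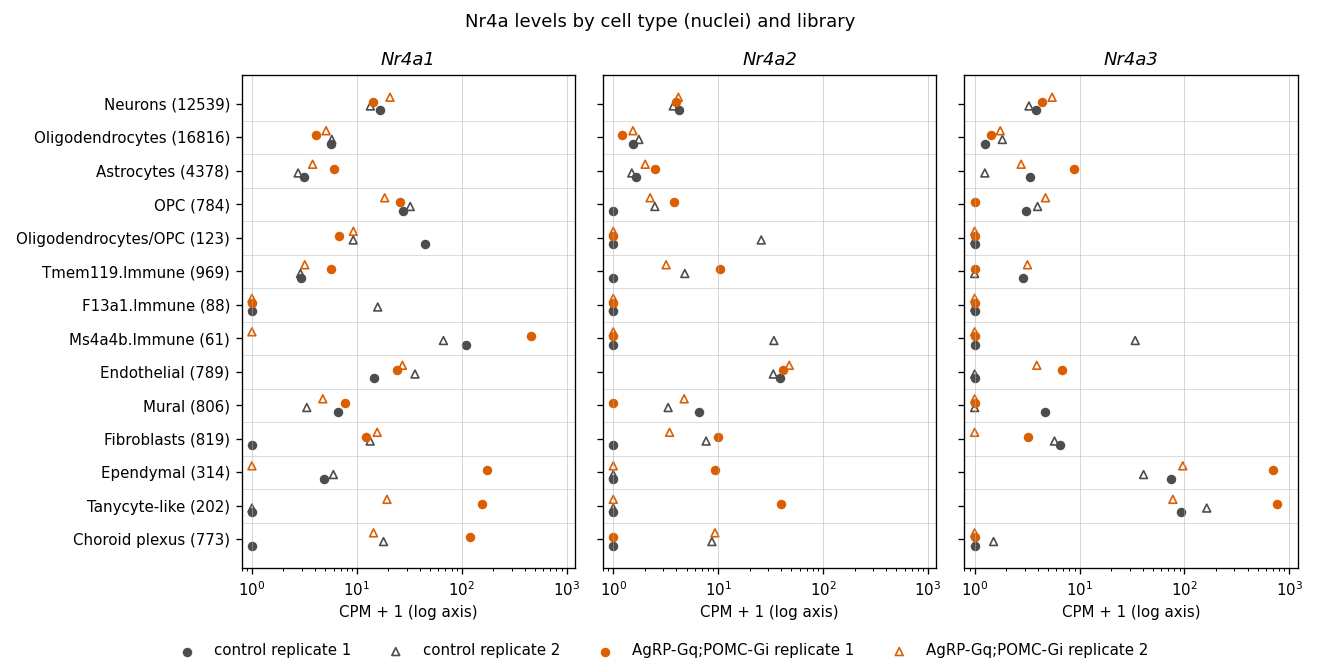
Level of each member (CPM + 1, log axis) in the 14 cell types (number of nuclei in parentheses); each symbol is 1 library, grey for control and orange for AgRP-Gq;POMC-Gi, filled circles for replicate 1 and open triangles for replicate 2. *Nr4a3* stands highest in ependymal and tanycyte-like cells in every library, *Nr4a2* has its highest mean in endothelial cells, and the filled orange circle of AgRP-Gq;POMC-Gi replicate 1 lies apart in the ventricular types.

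The ventricular cells also held the most uneven values of the family. In ependymal nuclei, *Nr4a3* had a UMI in 11 of 76 and 6 of 64 control nuclei, in 42 of 90 nuclei of AgRP-Gq;POMC-Gi replicate 1 and in 16 of 84 nuclei of replicate 2. In tanycyte-like nuclei these counts were 4 of 26, 3 of 26, 38 of 67 and 14 of 83. AgRP-Gq;POMC-Gi replicate 1 thus exceeded the other 3 libraries in both types, with shares of 46.7% (36.1 to 57.5) and 56.7% (44.0 to 68.8). The next highest shares were 19.0% (11.3 to 29.1) and 16.9% (9.54 to 26.7), both in AgRP-Gq;POMC-Gi replicate 2. Median depth was 3154.5, 2765.5, 2492 and 2551 UMIs per ependymal nucleus and 3430, 2746, 2882 and 3876 UMIs per tanycyte-like nucleus. After thinning to 800 UMIs, the shares were 1.32%, 0%, 28.9% and 8.33% in ependymal nuclei and 0%, 7.69%, 31.3% and 6.02% in tanycyte-like nuclei.

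**Figure D2:**
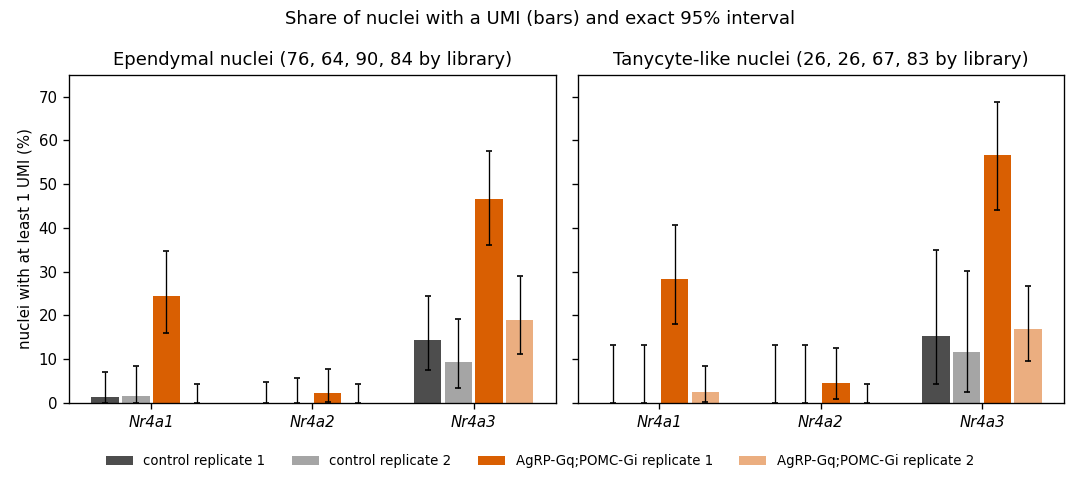
Share of ependymal and tanycyte-like nuclei with at least 1 UMI of each member by library (bars, y axis in percent), with exact 95% Clopper-Pearson intervals (lines). For *Nr4a1* and *Nr4a3*, the bar of AgRP-Gq;POMC-Gi replicate 1 stands above the other 3 libraries in both types, at 24.4% and 46.7% of ependymal nuclei.

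*Nr4a1* was raised in the same library. It had 3.90, 4.98, 173 and 0 CPM in ependymal cells and 0, 0, 155 and 18.4 CPM in tanycyte-like cells. The 2 groups overlapped in ependymal cells, since AgRP-Gq;POMC-Gi replicate 2 had no UMI in 84 nuclei (a limit of 3 nuclei for a count of 0 allows a share of up to 3.57%). Over all libraries, 17 of 24 *Nr4a1*-positive ependymal nuclei (70.8%) also had *Nr4a3*, against 20.0% of the others. In tanycyte-like nuclei it was 18 of 21 (85.7%) against 22.7%. Positive and other nuclei had similar depth there, with medians of 2967 and 3293 UMIs. The positive nuclei come largely from 1 library and the others do not, so these contrasts also set libraries against each other. Within AgRP-Gq;POMC-Gi replicate 1 alone, a comparison added after seeing the data, *Nr4a3* was in 17 of 22 *Nr4a1*-positive ependymal nuclei (77.3%) against 25 of 68 others (36.8%). In tanycyte-like nuclei of that library it was in 16 of 19 (84.2%) against 22 of 48 (45.8%).

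The rise in AgRP-Gq;POMC-Gi replicate 1 was present in each of the 4 clusters that form these types. *Nr4a3* had 250, 117, 1548 and 125 CPM in ependymal cluster 71 and 0, 13.4, 245 and 58.7 CPM in ependymal cluster 37. In tanycyte-like cluster 61 it had 0, 217, 750 and 66.3 CPM and in cluster 141 it had 152, 0, 812 and 106 CPM. Among 8091 ependymal genes tested, AgRP-Gq;POMC-Gi replicate 1 had the highest level for 20.5%, and 15 genes (0.185%) were at least 4-fold above the next library. *Nr4a3*, at 7.24-fold, and *Nr4a1*, whose next library held a single UMI, were among them. So were *Egr1*, *Fos* and *Junb*, transcription factors of the same rapid response that were picked here after their values were seen.

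These differences did not pass the threshold when all 4 libraries were fitted with the minimum of 20 UMIs and without a replicate block. With the block *Nr4a3* passed it in ependymal cells (difference 2.64, edgeR adjusted p = 0.00595), and without a gene filter *Nr4a1* and *Nr4a3* passed it in tanycyte-like cells (adjusted p = 0.00197 and 0.00585). With edgeR's quasi-likelihood test and Benjamini-Hochberg adjustment over all genes, *Nr4a3* differed by 2.82 (log2, SE 0.71) in ependymal cells (unadjusted p = 0.0016, adjusted p = 0.919). The 2 groups did not overlap, as for 13.6% of the 8091 genes in the upward direction. No ependymal gene had an adjusted p below 0.05 (0.0%), while 159 (1.97%) were higher and 177 (2.19%) lower at an unadjusted p below 0.05. In tanycyte-like cells *Nr4a3* differed by 1.94 (SE 0.84, edgeR adjusted p = 0.81) with overlapping groups, and again none of 6601 genes (0.0%) passed the adjusted threshold. *Nr4a1* in tanycyte-like cells had no UMI in the controls, so it was at least 4.23-fold higher, taking 3 counts over both control libraries as the floor (adjusted p = 0.81). Its groups did not overlap, as for 14.0% of genes there. This bound rests on AgRP-Gq;POMC-Gi replicate 1, which held 32 of the 38 UMIs, and without it the bound was 1.09-fold. In ependymal cells the *Nr4a1* ratio of summed UMIs was 20.3 (counting interval 5.28 to 173), with 2 UMIs in the controls (adjusted p = 0.992). In both ventricular types *Nr4a1* reached the 20 UMIs needed for a test only through the AgRP-Gq;POMC-Gi group. Its values there are therefore no independent support for a difference.

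One library carried these values. Without AgRP-Gq;POMC-Gi replicate 1, the *Nr4a3* difference was 0.72 in ependymal cells and -0.69 in tanycyte-like cells, and that of *Nr4a1* in ependymal cells was -3.17. The last value was fitted for a library with no UMI against 1 UMI in each control. Without replicate 2 the differences in ependymal cells were 3.63 for *Nr4a3* and 5.22 for *Nr4a1*. This sets 1 library against both controls, which alone supply the spread, so it does not stand for a difference between the groups. Marker lists of cell types were summed in the same nuclei. The choroid plexus markers (3 of 3 detected) summed to 23.4, 3917, 82.4 and 2121 CPM in ependymal nuclei, high where the tissue held choroid plexus. The 5 neuronal markers summed to 548 to 921 CPM there and the 4 ependymal markers to 4127 to 4422 CPM. AgRP-Gq;POMC-Gi replicate 1 lay within the range of the other libraries for the first 2 of these lists and was the lowest for the third, against 4261 CPM in the next library. In tanycyte-like nuclei, the 3 markers *Gfap*, *Vim* and *Slc1a3* summed to 1199, 1274, 1943 and 2192 CPM and the 5 astrocyte markers to 1957, 1561, 2676 and 2747 CPM, both higher in the AgRP-Gq;POMC-Gi group. The part of these lists in the *Nr4a* values of either type was not tested.

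Neurons gave smaller differences, and there AgRP-Gq;POMC-Gi replicate 2 was the highest library for *Nr4a1* and *Nr4a3*. Neurons made up 25.4%, 27.2%, 38.0% and 36.5% of the kept nuclei of the libraries. The number of nuclei per neuronal cluster also differed between libraries, as given for cluster 76 below. The part of this mix in the pooled values was not tested. *Nr4a3* was the only member whose groups did not overlap in neurons as a whole, with a difference of 0.68 (log2, SE 0.21, unadjusted p = 0.012, edgeR adjusted p = 0.847). A single neuron held 12 of 76, 10 of 63, 19 of 121 and 15 of 158 of its UMIs in the libraries, so few nuclei weigh on this order. Among the 21200 genes tested in neurons, 11.7% had non-overlapping groups in the same direction, 2.66% were higher and 2.86% lower at an unadjusted p below 0.05, and 1 (0.00472%) passed the adjusted threshold. The unadjusted p stayed below 0.05 in 8 of 9 alternative settings, and the difference ranged from 0.52 to 0.83. *Nr4a1* differed by 0.28 (SE 0.18, adjusted p = 0.847), and without AgRP-Gq;POMC-Gi replicate 2 by 0.03. *Nr4a2* differed by 0.09 (SE 0.19, adjusted p = 0.954).

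Among glia and vessels no member passed the adjusted threshold in any type tested with the same fit, while 0.169% of the genes in oligodendrocytes, 0.357% in astrocytes, 0.0344% in OPC and 0.0% in endothelial cells and fibroblasts did. *Nr4a1* was lower without overlap in oligodendrocytes (difference -0.35, SE 0.25, adjusted p = 0.818) and OPC (-0.41, SE 0.36, adjusted p = 0.948). In OPC the difference was -0.73 with AgRP-Gq;POMC-Gi replicate 1 left out and -0.0992 with AgRP-Gq;POMC-Gi replicate 2 left out. Non-overlap downward occurred in 21.5% and 20.0% of the genes of these types. In astrocytes it was higher without overlap (1.01, SE 0.50, adjusted p = 0.637), as were 14.7% of astrocyte genes, and *Nr4a3* had 2.38, 0.251, 7.77 and 1.78 CPM (1.78, SE 0.79, adjusted p = 0.568). Here again AgRP-Gq;POMC-Gi replicate 1 was the highest library for both genes, and without it the differences were 0.45 and 0.31. Within that library, astrocyte clusters 20 and 54, with 197 of its 1042 astrocytes, held 13 of 17 *Nr4a1* and 23 of 26 *Nr4a3* UMIs. The control libraries had no UMI of either gene in the 87 and 135 nuclei of these clusters, and AgRP-Gq;POMC-Gi replicate 2 had 3 and 1 UMIs in 232 nuclei. In CPM, the 2 AgRP-Gq;POMC-Gi libraries stood there at 25.1 and 4.41 for *Nr4a1* and at 44.4 and 1.47 for *Nr4a3*. These clusters were set apart after seeing the data because they held these UMIs, so the lower level in the other astrocyte clusters follows from the split. The 3 tanycyte-like markers summed to 585, 606, 768 and 628 CPM in astrocytes, highest in the same library, and their part in these values was not tested. With the replicate block or without a gene filter, *Nr4a3* in astrocytes passed the threshold (edgeR adjusted p = 0.0184 and 0.0326). Astrocytes held 10, 7, 17 and 11 UMIs of *Nr4a1* and 11, 1, 26 and 7 of *Nr4a3*. In fits with the minimum of 20 UMIs, both genes reached it there only with the AgRP-Gq;POMC-Gi group counted. Their astrocyte values are therefore no independent support for a difference. Endothelial *Nr4a2* differed by 0.32 (SE 0.42, adjusted p = 0.99) with the AgRP-Gq;POMC-Gi libraries above the controls, an order that 17.7% of endothelial genes share. Endothelial *Nr4a1* differed by 0.00 (SE 0.62), and *Nr4a2* and *Nr4a3* in oligodendrocytes by -0.70 (SE 0.63) and 0.20 (SE 0.67). *Nr4a1* in fibroblasts differed by 0.42 (SE 0.75). That value was 0.0868 with control replicate 1 left out and 5.20 with control replicate 2 left out, the latter fitted against a library with no UMI.

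Whether the response of *Nr4a1* differed between cell types was tested as an interaction. The difference in neurons minus that in oligodendrocytes was 0.61 (log2, SE 0.24, unadjusted p = 0.0286, edgeR adjusted p = 0.447), and 56 of 16303 genes (0.343%) passed the adjusted threshold. Neurons minus astrocytes gave -0.71 (SE 0.52, adjusted p = 0.799) for *Nr4a1* and -1.10 (SE 0.86, adjusted p = 0.808) for *Nr4a3*, with 0.0525% of 15235 genes past the threshold. For *Nr4a3*, the ependymal minus the neuronal difference was 1.84 (SE 0.73, edgeR adjusted p = 0.9999, 0.0% of 8045 genes past the threshold). Unlike the comparisons of neurons with oligodendrocytes and astrocytes, this one was not planned at the start. Every one of these differences between types missed the adjusted threshold, which does not show that the types responded alike.

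Inside the neurons the members were spread in unlike ways over the 120 clusters that had at least 5 nuclei in every library. *Nr4a1* had a UMI in all 120 clusters, with a median of 14.2 CPM and a range of 1.05 to 53.7 CPM. *Nr4a2* was at 0 in 71 clusters. The 5 clusters with the most *Nr4a2* UMIs, among all 134 and not ranked by CPM, held 65.0% of its 380 neuronal UMIs in 5.97% of the neurons. *Nr4a3* was at 0 in 42 clusters, and the 5 clusters with the most of its UMIs held 45.5% of 418 UMIs. Single nuclei counted for much of the *Nr4a3* signal: 19 neurons with 5 or more UMIs held 33.7% of it. The corresponding shares were 15.3% (9 neurons) for *Nr4a2* and 3.05% (10 neurons) for *Nr4a1*.

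Clusters are named by number and 2 leading genes, as in the deposited annotation, or by either alone. *Nr4a1* was highest in 63: Ebf2/Th, a cluster with the dopamine-synthesis gene *Th*, at 27.4, 30.0, 85.6 and 71.7 CPM. There both AgRP-Gq;POMC-Gi libraries exceeded both controls, but replicate 1 had 8 UMIs in 4 of 17 nuclei, 5 of them in 1 nucleus. Then came 38: Kcnh8/Maf (56.8, 35.6, 37.4 and 79.6 CPM), whose 183 nuclei gave 115 UMIs, the most of these clusters, and whose groups overlapped. 104: Gabra6/Fat2, named for a granule cell receptor subunit, had 44.5, 22.1, 49.2 and 59.7 CPM on only 13 UMIs, also without overlap of the groups. Cluster 76 had 37.1, 18.4, 46.2 and 65.0 CPM and 70: Tfap2b/Cntnap5b had 21.6, 20.0, 43.0 and 56.7 CPM. In both of these the AgRP-Gq;POMC-Gi libraries were above the controls. In cluster 70 their 18 and 17 UMIs came from 5 nuclei each, with up to 6 and 7 UMIs in a nucleus. The neighbours in this order overlapped in their libraries, and by share of nuclei after thinning to 2000 UMIs cluster 38 was first and cluster 63 seventh.

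*Nr4a2* was highest in 68: Klhl1/Tafa1, at 31.6, 43.7, 95.1 and 64.8 CPM, where 27.5% of 131 nuclei had a UMI. It was next in Prph/Slc5a7, a cholinergic cluster by its choline transporter, at 15.7, 32.8, 19.4 and 98.8 CPM (34.1% of 82 nuclei). The high value of the last library came from 16 of 32 nuclei. It was then found in Gcg/Reln, a cluster with the preproglucagon gene, at 39.8, 11.9, 38.7 and 8.62 CPM, where the spread within each group exceeded the difference between them. 28: Mecom/Sema3a had 36.0, 21.5, 14.5 and 12.2 CPM, the controls being the higher here, and 114: Tac1/Tafa2 rested on 9 UMIs. Clusters were called glutamatergic or GABAergic by their level of the transporter genes *Slc17a6* and *Slc32a1*. Glutamatergic clusters as a whole had 4.14 ± 0.78 CPM of *Nr4a2* (SD, n = 4 libraries) and GABAergic clusters 0.82 ± 0.41 CPM. Libraries of the 2 classes did not overlap, and the lowest glutamatergic value was 3.22 and the highest GABAergic value 1.28 CPM. The 12 clusters in which neither transporter gene reached 20 UMIs were higher still by their mean, with 3.94, 11.6, 7.10 and 49.3 CPM of *Nr4a2*, the last value far above the others. For *Nr4a1* the glutamatergic and GABAergic classes overlapped, with 17.6 ± 5.7 and 13.6 ± 1.1 CPM.

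*Nr4a3* was highest in cluster 76, at 37.1, 27.5, 67.9 and 59.8 CPM, also after thinning. It had a UMI there in 1 of 13, 2 of 24, 9 of 43 and 7 of 40 nuclei, with up to 9 UMIs in a nucleus. In 53: Gal/Dkk2, named for the peptide galanin, it had 63.5, 65.7, 0 and 49.1 CPM. The 12 UMIs of the first library came from 1 nucleus and the 11 of the second from 2 nuclei. In 145: Col12a1/Tnc it had 16.7, 38.3, 0 and 46.4 CPM on 11 UMIs. In 41: Ryr1/Tfap2b the value of AgRP-Gq;POMC-Gi replicate 1, 63.9 CPM against 15.1, 4.89 and 6.23 CPM, came from 33 UMIs, of which 19 were in 1 nucleus. 89: Necab1/Arhgap15 had 0, 8.65, 50.1 and 0 CPM. These levels therefore rest on few nuclei, and so did the control values of cluster 76, with 3 positive nuclei in all.

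**Figure D3:**
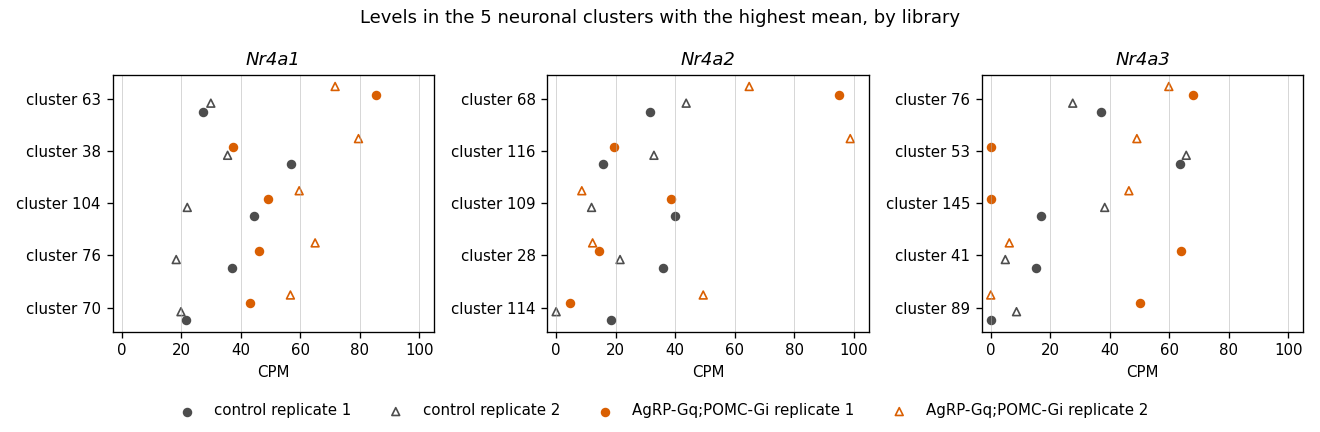
Level (CPM) by library in the 5 neuronal clusters with the highest mean of each member; symbols as for the cell types (grey control, orange AgRP-Gq;POMC-Gi, filled circles replicate 1, open triangles replicate 2). In clusters 63, 104, 76 and 70 for *Nr4a1*, 68 for *Nr4a2* and 76 for *Nr4a3*, both orange symbols lie above both grey symbols. This order held for 15.2% of all pairs of cluster and gene. The clusters were chosen by their mean over all 4 libraries, which favours clusters high in either group.

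Group differences were tested in each cluster in which at least 5% of nuclei had a UMI. *Nr4a1* was tested in 100 clusters, *Nr4a2* in 9 and *Nr4a3* in 12, and the remaining clusters of the latter pair gave no test. None had an adjusted p below 0.05 with edgeR's quasi-likelihood test (lowest 0.841, 0.626 and 0.841, adjusted within the cluster). At an unadjusted p below 0.05, *Nr4a1* was higher in 5 clusters and lower in 2, while 2.38% of all 1396489 pairs of cluster and gene were higher and 2.13% lower. *Nr4a2* was higher in 2 clusters and *Nr4a3* in 2, and neither was lower in any. The minimum of 5% counts the nuclei of both groups, so a gene low in either group can meet it through the other. *Nr4a1* in clusters 112 and 140 and *Nr4a3* in cluster 89 had few control UMIs, and *Nr4a1* in cluster 79 had few in the AgRP-Gq;POMC-Gi group. The counts of higher and lower clusters are therefore not independent of this minimum. The groups did not overlap upward in 19 and downward in 11 of the 100 *Nr4a1* clusters, against 15.2% and 18.4% of all pairs, of which 0.0387% had an adjusted p below 0.05. With DESeq2 none of these clusters had an unadjusted p below 0.05.

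Of the *Nr4a1* clusters, 63 differed by 1.39 (log2, SE 0.49, edgeR adjusted p = 0.997), 70 by 1.34 (SE 0.56, adjusted p = 0.986) and 76 by 1.16 (SE 0.54, adjusted p = 0.841). The groups did not overlap upward for 16.5%, 15.3% and 16.8% of the genes tested in these clusters. Cluster 63 kept an unadjusted p below 0.05 in 7 of 10 alternatives, with a difference between 1.31 and 1.49. Cluster 76 did so in 7 of 10 as well, but without control replicate 2 its difference was 0.65. Cluster 70 did so in 5 of 10. *Nr4a1* and *Nr4a3* belonged to the 10 immediate early genes by which the study selected clusters 63, 76, 82 and Gcg/Reln on these samples, so their direction in these clusters is not independent evidence. In the other selected clusters, *Nr4a1* had 20.5, 26.2, 6.69 and 26.0 CPM in 82: Tal1/Nell1 (difference -0.20, SE 0.69). In Gcg/Reln it had 7.23, 3.96, 0 and 34.5 CPM (1.87, SE 1.00, edgeR adjusted p = 0.963), and 12 of its 15 UMIs were in AgRP-Gq;POMC-Gi replicate 2.

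The remaining *Nr4a1* clusters rested on few UMIs. Cluster 112: Il1rapl2/Grm8 had 1 UMI in the controls against 7, a ratio of 6.96 (counting interval 0.895 to 314). Cluster 140: Fgf10/Cpne4 had 2 against 14, a ratio of 4.37 (1.00 to 39.6). In cluster 140 the groups overlapped, since AgRP-Gq;POMC-Gi replicate 1 lay just below the 16.1 CPM of control replicate 1, and 12 of the 14 UMIs were in AgRP-Gq;POMC-Gi replicate 2. Its difference of 1.99 (log2) fell to 0.89 when control replicate 2 was left out, and leaving out AgRP-Gq;POMC-Gi replicate 2 gave 1.11. In cluster 112 the difference of 2.60 was 1.10 without control replicate 2. *Nr4a1* was lower in 79: Kcnmb2/Slc6a5, a cluster with the glycine transporter of inhibitory neurons, at 20.2, 12.1, 0 and 4.49 CPM, a ratio of 0.17 (0.0183 to 0.777) on 11 and 2 UMIs. It was also lower in 81: Gbx1/Fgf10, at 47.1, 12.9, 3.88 and 12.4 CPM (difference -1.65, SE 0.75, edgeR adjusted p = 0.99). In both the libraries of the groups did not overlap, although in cluster 81 control replicate 2 and AgRP-Gq;POMC-Gi replicate 2 were nearly equal, and without control replicate 1 the difference was -0.54.

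For *Nr4a2*, cluster 68 differed by 1.15 (log2, SE 0.37, edgeR adjusted p = 0.626) without overlap of the groups, as for 13.1% of the genes of that cluster. It kept an unadjusted p below 0.05 in 8 of 10 alternatives, but without AgRP-Gq;POMC-Gi replicate 1, in which 1 nucleus held 11 of 44 UMIs, the difference was 0.72. Prph/Slc5a7 differed by 1.27 (SE 0.60, edgeR adjusted p = 0.628), a value that turned to -0.18 without AgRP-Gq;POMC-Gi replicate 2. For *Nr4a3*, cluster 76 differed by 1.08 (SE 0.50, edgeR adjusted p = 0.841) without overlap and between 0.85 and 1.29 with a library left out. Cluster 89 had 2 UMIs in the controls and 13 in AgRP-Gq;POMC-Gi replicate 1 only, a ratio of 6.89 (1.56 to 62.9). Cluster 76 was the only cluster in which a pair of members, *Nr4a1* and *Nr4a3*, had an unadjusted p below 0.05.

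**Figure D4:**
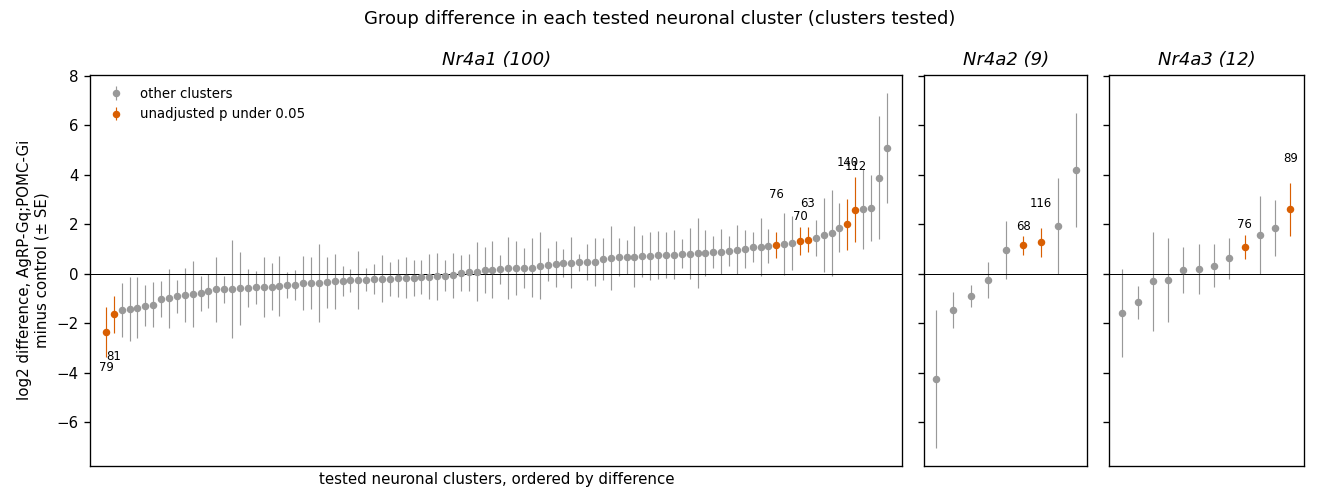
Group difference (log2, AgRP-Gq;POMC-Gi minus control, ± SE from the edgeR fit) of each member in every tested neuronal cluster (number in parentheses), ordered by size; orange points with cluster numbers have an unadjusted p below 0.05. The points lie on both sides of 0, with 7 orange clusters for *Nr4a1* and 2 each for *Nr4a2* and *Nr4a3*; in 2 clusters each of *Nr4a1* and *Nr4a2* a group had no UMI, so the size of the outermost fitted values depends on the prior count.

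Across the 120 clusters, *Nr4a1* and *Nr4a3* levels had a Pearson r of 0.331 on log2(CPM + 10) and a Spearman rho of 0.286. *Nr4a2* had r 0.034 and rho 0.049 with *Nr4a1*, and r 0.053 and rho 0.212 with *Nr4a3*. These are descriptions of points that share libraries and depth. The genes most like *Nr4a1* were *Fos* (r 0.533), *Pde10a* (0.473), *Egr1* (0.466), *R3hdm2* (0.458) and *Inf2* (0.424), of 14064 compared. Those most like *Nr4a3* were *Fos* (0.649), the non-coding *1700016P03Rik* (0.648), the kinase gene *Sik1* (0.555), *Gzmk* (0.528) and the calcium channel gene *Ryr1* (0.475). Those most like *Nr4a2* were *Prph* (0.491), which encodes the neurofilament peripherin, *Ahnak2* (0.423), *Lhfpl2* (0.421), *Sncg* (0.420) and *Pdgfd* (0.414), with none of the 20 other rapid activity genes described last among them. In single neurons, 123 of 231 *Nr4a3*-positive nuclei (53.2%) also had *Nr4a1*, against 11.3% of the other neurons, with median depths of 9621 and 8676 UMIs. *Nr4a2* was found in 5.63% of them, against 1.69% of the other neurons.

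No gene of the pathway lists passed the adjusted threshold in a cell type in which it was tested, and choroid plexus was not tested. The list of 15 upstream regulators (CREB, CRTC and MEF2 factors and calcium-dependent kinases, phosphatase and deacetylases) was fully measured in neurons. None had an unadjusted p below 0.05 there, and the median difference was 0.06 (log2) against 0.00 for all genes. The largest were *Camk2d* (0.10, SE 0.09), *Hdac4* (0.09, SE 0.07) and *Crem* (0.09, SE 0.08). Outside neurons, 2 of the 15 were higher at an unadjusted p below 0.05 in astrocytes (4.17% of all genes), 1 in oligodendrocytes (3.67%) and 1 in OPC (2.66%), and 1 of 13 was lower in mural cells (2.77%). In neurons the 3 retinoid X receptor partners differed by 0.11 (*Rxra*, SE 0.16), -0.09 (*Rxrb*, SE 0.09) and 0.14 (*Rxrg*, SE 0.23). Of 6 dopamine neuron genes that depend on *Nr4a2*, 5 were tested in neurons and none passed the adjusted threshold. At an unadjusted p below 0.05, 1 of 5 was lower in neurons (2.86% of all genes), 1 of 4 in oligodendrocytes (3.69%), 1 of 2 in OPC (3.27%), 1 of 4 in endothelial cells (3.03%) and the 1 tested in ependymal cells (2.19%), and none was higher in any type tested. These were *Aldh1a1* in neurons, OPC and ependymal cells and *Ddc*, the decarboxylase of dopamine synthesis, in oligodendrocytes and endothelial cells. In neurons *Aldh1a1*, a retinaldehyde dehydrogenase, had 5.17, 4.05, 3.15 and 2.72 CPM (difference -0.59, SE 0.21, edgeR adjusted p = 0.847), *Th* differed by 0.48 (SE 0.32) and the receptor gene *Ret* by 0.24 (SE 0.12).

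A list of 20 other rapid activity genes was compared with the members by library. None passed the adjusted threshold in a type in which it was tested. In neurons 3 of 20 were higher and none lower at an unadjusted p below 0.05, against 2.66% and 2.86% of all genes, with a median difference of 0.21 against 0.00 for all genes. The 3 were *1700016P03Rik* (0.56), *Gem* (0.63) and *Btg1* (0.27), and those with the largest differences of either sign were *Fosb* (0.64, SE 0.30), *Gem* (SE 0.21) and *Egr2* (-0.60, SE 0.47). The first 3, and *Fos*, *Fosl2*, *Jun*, *Junb* and *Homer1* of this list, belong to the immediate early genes by which the study ranked clusters on these samples. Counts of this list are therefore not independent evidence of a difference. Without AgRP-Gq;POMC-Gi replicate 1, an omission chosen for this list after seeing the data, 11 of the 20 were higher in neurons (4.58% of all genes). That group then holds only replicate 2, which is assumed to vary as the controls do and which was already known to be the highest library for most of these genes, so the count adds no independent evidence. In astrocytes 9 of 14 tested were higher (4.17% of all genes higher, 4.08% lower), in tanycyte-like cells 6 of 12 (3.12% and 2.86%) and in ependymal cells 4 of 10 (1.97% and 2.19%), and none was lower in these types. Without AgRP-Gq;POMC-Gi replicate 1 these counts were 5 (3.67% of all genes), 0 (0.833%) and 1 (1.80%). In oligodendrocytes 3 of 14 were higher (3.67% of all genes), in Tmem119 immune cells 3 of 7 (2.45%), in OPC 2 of 7 (2.66%) and in endothelial cells 2 of 11 (2.31%). With that library left out, these counts were 1 (4.39% of all genes, with 1 lower), 1 (2.37%), 0 (2.94%) and 4 (2.38%). AgRP-Gq;POMC-Gi replicate 2 was the highest library for 16 of these 20 genes in neurons, as for *Nr4a1* and *Nr4a3*, whereas it was the highest for 26.6% of all neuronal genes. In tanycyte-like cells it was AgRP-Gq;POMC-Gi replicate 1 that was highest, for 16 of the 19 genes with a UMI, against 13.6% of all genes there. The same library was highest for 13 of 20 in astrocytes (13.7% of all genes) and for 8 of 16 in ependymal cells (20.5%). These shares of all genes count only genes with at least 20 UMIs. That minimum was reached by 12 genes of the list in tanycyte-like cells, 14 in astrocytes and 10 in ependymal cells. *Fos* itself had 82, 37.5, 539 and 95 CPM in tanycyte-like cells and 7.81, 0, 90.6 and 4.35 CPM in ependymal cells. *Btg2*, a growth-arrest gene, had 51.2, 74.9, 534 and 104 CPM and 23.4, 9.95, 194 and 52.2 CPM, and both genes were picked after their values were seen.

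**Figure D5:**
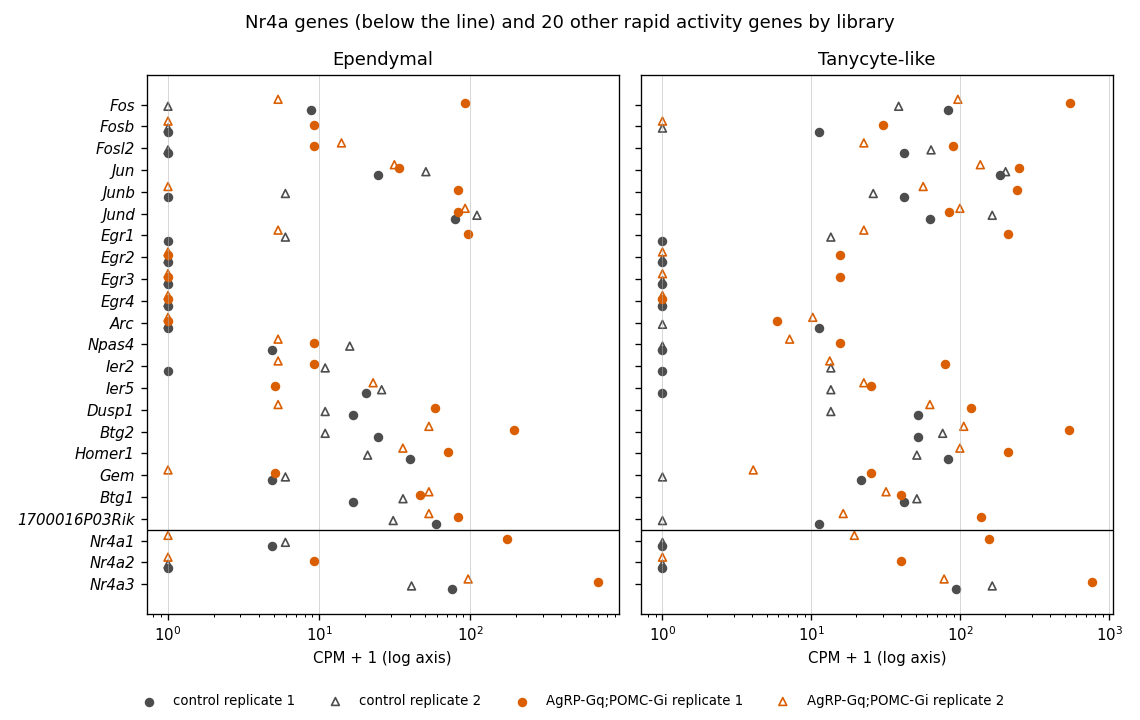
Level (CPM + 1, log axis) of the *Nr4a* genes (below the line) and 20 other rapid activity genes in ependymal and tanycyte-like nuclei; symbols are libraries, as for the cell types. For *Nr4a1* and *Nr4a3* and most genes above the line with detectable UMIs in tanycyte-like cells, the filled orange circle of AgRP-Gq;POMC-Gi replicate 1 lies farthest to the right, and *Jund* and *Arc* are among the exceptions.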

How the data were processed

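Per the labels and the Methods, the authors prepared 4 10x Genomics 3′ libraries of hindbrain nuclei, mapped the reads to GRCm38 and deposited raw UMI counts per gene and barcode. The submitters' processing notes name Cell Ranger 7.0.0 and Seurat 4.3.0. The cell types, clusters and kept nuclei are those of the authors' deposited annotation, made after a filter on UMIs, genes and the percent of mitochondrial UMIs per nucleus that the authors also deposited and that was used here only to check this filter, in which doublets had been treated and immediate early genes had been left out of the clustering genes.

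UMIs were summed per library and cell type or cluster, which gave CPM, and shares carry exact Clopper-Pearson intervals (95%). Groups were compared on these sums with edgeR 4.0.16 in R 4.3.3 (quasi-likelihood test, TMM factors, Benjamini-Hochberg adjustment over all genes tested). Cell types were tested where the gene had at least 20 UMIs, and clusters where it was in at least 5% of nuclei, each with at least 5 nuclei per library. Interactions between cell types were fitted to both sums together with the library as a block. The alternatives were no TMM factors, DESeq2 1.42.0, no gene filter, edgeR's filterByExpr, minimums of 20 UMIs or 10 nuclei, a replicate block and the omission of single libraries. For equal depth, nuclei were thinned to 800 (types) or 2000 UMIs (clusters). Named clusters are the 5 with the highest mean of each member, those with an unadjusted p below 0.05 and the 4 that the study ranked by immediate early genes. Like genes are the 5 with the highest Pearson r, and 3 genes are named per list by size of difference. The members, lists and rules were chosen with earlier results of these data known. Scripts were tested on simulated data and used Python 3.11.15, numpy 2.4.6, pandas 2.3.3, scipy 1.17.1 and matplotlib 3.10.9. Promoters are RefSeq's (GRCm38.p6).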

Additional observations from a re-analysis of the deposited data

Results flagged for a closer look

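For *Nr4a1*, both AgRP-Gq;POMC-Gi libraries were above both controls in astrocytes and below both in oligodendrocytes and OPC, orders shared by 14.7%, 21.5% and 20.0% of the genes of these types. None of the 3 differences passed the adjusted threshold, and that in astrocytes went from 1.01 to 0.45 (log2) without AgRP-Gq;POMC-Gi replicate 1. *Nr4a1* reached the minimum for a test in astrocytes only with the AgRP-Gq;POMC-Gi group counted. In OPC, leaving out AgRP-Gq;POMC-Gi replicate 2 took it from -0.41 to -0.0992. The difference in astrocytes minus that in oligodendrocytes was 1.36 on the log2 scale (SE 0.55, unadjusted p = 0.0300, edgeR adjusted p = 0.577). The separately fitted differences of astrocytes and OPC were 1.42 apart, and the interaction fit gave 1.40 (SE 0.60, edgeR adjusted p = 0.689). In tanycyte-like cells *Nr4a1* was above controls that had no UMI. Its lower bound there was 2.43 above the difference in oligodendrocytes and 2.49 above that in OPC (log2), distances that were not tested. The interaction fits, made against controls at 0, gave 11.6 (SE 3.90, edgeR adjusted p = 0.872) and 8.46 (SE 2.20, edgeR adjusted p = 0.506). The bound pools 38 UMIs, 32 of them from AgRP-Gq;POMC-Gi replicate 1, and fell from 4.23-fold to 1.09-fold without that library. The threshold was passed by 0.124% of genes between astrocytes and oligodendrocytes, 0.0965% between astrocytes and OPC and 0.0% between tanycyte-like cells and either of these types. These comparisons were chosen after the levels had been seen.

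Barcodes that the authors did not keep were used in no comparison above. In them, *Nr4a1* had 9.61 and 10.6 CPM in the control libraries and 12.1 and 14.6 CPM in the AgRP-Gq;POMC-Gi libraries, with a mean of 13.4 CPM in the latter. *Nr4a3* had 2.5 and 2.21 CPM against 7.31 and 6.73 CPM, a mean of 7.02 CPM, on 19, 17, 47 and 52 UMIs. In both, the AgRP-Gq;POMC-Gi libraries lay above the controls, as for 13.8% of 18403 genes in these barcodes. For *Nr4a2*, with 2.76 and 4.02 against 2.49 and 2.59 CPM on 21, 31, 16 and 20 UMIs, they lay below the controls, as for 22.1% of genes. No test was made of these barcodes.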

How the results depend on the processing

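Of 144 alternatives to 16 differences in cell types, 127 kept direction and side of the adjusted threshold, 9 reversed and 8 passed the threshold. Of 101 alternatives to 11 cluster differences, 56 kept an unadjusted p below 0.05, 43 lost it and 2 reversed. Endothelial *Nr4a1*, at 0.00, was -0.0311 without a gene filter, and leaving out a library moved it from -0.47 to 0.84. Leaving out a library moved *Nr4a1* in ependymal cells from -3.17 to 5.22, in OPC from -0.73 to -0.0992 and in fibroblasts from 0.0868 to 5.20, *Nr4a2* in oligodendrocytes from -1.40 to -0.26, *Nr4a2* in neurons from -0.0359 to 0.22 and *Nr4a3* from -0.45 to 1.16 in oligodendrocytes, -0.69 to 2.85 in tanycyte-like cells, 0.31 to 4.11 in astrocytes and 0.72 to 3.63 in ependymal cells. It moved *Nr4a2* in the Prph/Slc5a7 cluster from -0.18 to 2.00 and *Nr4a3* in cluster 89 from -2.98 to 5.62. The values -3.17 and -2.98 were fitted for an AgRP-Gq;POMC-Gi library with no UMI, so their size depends on the prior count. Leaving out the gene filter changes the genes used for the dispersion estimates and those adjusted over, and the part of each was not tested. *Nr4a1* (6.99, a fitted value against controls at 0) and *Nr4a3* (2.10) in tanycyte-like cells then passed the threshold, as did *Nr4a3* in astrocytes (1.78). Their edgeR adjusted p-values were 0.00197, 0.00585 and 0.0326.

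The replicate number is shared between groups and no label says what it marks. Same-numbered libraries deviated together only weakly in neurons (r 0.142 over 11036 genes, 2 pairs), so the number was not treated as a pairing. It did track choroid plexus content in both groups, with 2 and 6 such nuclei in the replicates 1 and 436 and 329 in the replicates 2. Choroid plexus markers in neurons summed to 5.03, 1011, 10.6 and 588 CPM. A shared handling of same-numbered libraries was thus not excluded. With the replicate block, endothelial *Nr4a1* was -0.0528, and *Nr4a3* passed the threshold in astrocytes (1.96, edgeR adjusted p = 0.0184) and ependymal cells (2.64, adjusted p = 0.00595). *Nr4a2* and *Nr4a3* were then each lower in 1 cluster.

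The numbers of clusters with an unadjusted p below 0.05 were small and moved with the settings. *Nr4a1*, higher in 5, was higher in 3 without TMM factors, with filterByExpr or with at least 20 UMIs, in 0 with DESeq2 and in 0 to 8 with a library left out. It was lower in 2, but in 0 with DESeq2 or filterByExpr, 1 with at least 20 UMIs and 0 to 3 with a library left out. *Nr4a2*, higher in 2, was higher in 1 without TMM factors, with filterByExpr, with at least 20 UMIs or with at least 10 nuclei, in 0 with DESeq2 and in 1 to 2 with a library left out. It was lower in 2 without TMM factors or a filter, in 1 with at least 20 UMIs and in 0 to 2 with a library left out. *Nr4a3*, higher in 2, was higher in 1 with filterByExpr or at least 20 UMIs, in 0 with DESeq2 and in 0 to 3 with a library left out. It was lower in 3 without a filter and in 0 to 1 with a library left out. The causes were not tested. *Nr4a2* and *Nr4a3* reached the minimum detection for a test in 9 and 12 clusters, so the other clusters gave no comparison for them.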
